A study of Mus musculus with 2 samples.

Results

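The 7-gene spots are 200 capture spots of 6464 in all, those whose RNA held the largest share of 7 genes used as markers of leptomeningeal fibroblasts. Each spot is a small barcoded area under a tissue section that can hold several cells, and its RNA is counted as UMIs, unique molecular identifiers that each stand for 1 captured molecule. Spots with at least 200 UMIs were ranked within each of the 2 libraries by the summed share of Slc47a1, Slc22a6, Slc6a13, Foxc1, Aldh1a2, Igfbp2 and Ptgds, and the first 100 were taken. In the micropillar library the 100 spots were 3.51% of 2849 eligible spots, and in the flat library they were 4.53% of 2209. The measured values that chose the spots are therefore their 7-gene shares, which are given below as a description only.

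The micropillar library came from nude mice, an athymic strain, that carried an implant with a micropillar surface, and the flat library came from nude mice that carried a flat implant. Both are formalin-fixed, paraffin-embedded sections that the labels call bone, and the labels used here give no age, number of animals, implant site or time after implantation. Each group is 1 library, so the spots of a library share 1 section, differences between the libraries have no replicate check, and the implant surface, the section and the tissue it happened to hold cannot be told apart. Intervals below are exact 95% intervals that cover counting error only, not differences between sections or between spots. In spots that mix cells, more cells of a type and more RNA per cell cannot be told apart.

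The leptomeninges are the pia and the arachnoid, thin membranes that lie on the brain and spinal cord and enclose the cerebrospinal fluid. Their fibroblasts lay down collagens, carry transporters that move organic anions, GABA and other solutes, make retinoic acid through Aldh1a2, and secrete the prostaglandin D synthase Ptgds and the growth-factor binding protein Igfbp2. The transcription factor Foxc1 is needed for the meninges to form, and the glia limitans, a sheet of astrocyte endfeet, lies directly beneath the pia. The choroid plexus, an epithelium that secretes cerebrospinal fluid, lies within the ventricles, is continuous with pial tissue, and also expresses Igfbp2 and Ptgds.

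The spots did not form a uniform leptomeningeal population. Genes of the choroid plexus, headed by the thyroxine and retinol carrier gene Ttr, led the difference from other spots in both libraries, and a further set of spots was dominated by collagen and osteoblast genes. Genes of the leptomeninges that the rule did not use, among them the growth factor gene Igf2, the apolipoprotein gene Apod and the proline transporter gene Slc6a20a, were also higher in both libraries, at lower levels. Since the leading genes go against the name of the markers, the spots are called 7-gene spots throughout.

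The sections held much neural RNA for tissue labelled bone. Among the other spots, 12 neuron markers took 0.833% of UMIs in the micropillar library and 1.01% in the flat library, while 10 measured osteoblast and osteocyte genes took 0.0214% in the micropillar and 0.0166% in the flat library. The whole series held 3188977 UMIs in the micropillar library and 2286295 in the flat library. The 2 libraries shared 2135 barcodes, and 4 barcodes belonged to 7-gene spots in both. Barcodes of such slides come from a fixed set, so a shared barcode was not read as a shared spot.

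Shares of the 7 genes were low in absolute terms. The 7 genes took 0.50% of UMIs in micropillar 7-gene spots (95% interval 0.438 to 0.568, 234 of 46781 UMIs) and 0.0215% in micropillar other spots. In flat 7-gene spots they took 0.747% (0.666 to 0.835, 309 of 41369 UMIs), and in flat other spots 0.0180%. The highest spot reached 2.73% in the micropillar library and 3.57% in the flat library. At the edge of the rule the last spot taken and the next one outside held 0.292% and 0.287% in the micropillar library, and 0.389% and 0.387% in the flat library, so the boundary cuts through a continuous range.

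**Figure D1:**
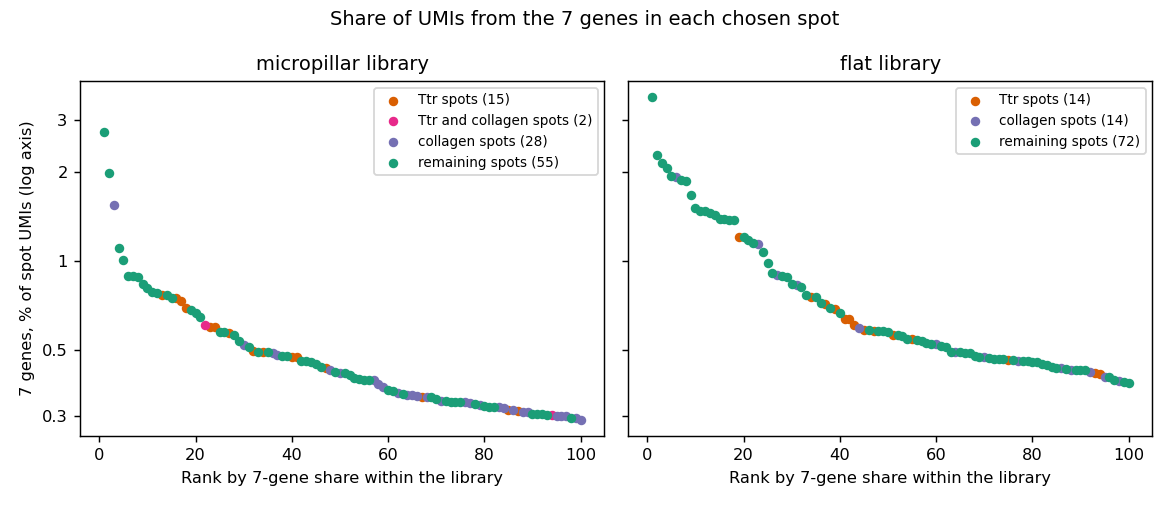
Share of each chosen spot's UMIs that came from the 7 genes (log axis), against its rank, in the micropillar library (left) and the flat library (right). Colours mark spots with at least 2 Ttr UMIs, with at least 5 collagen UMIs, with both, and the remaining spots, and Ttr and collagen spots lie along most of the ranking while the first 2 ranks of both libraries are remaining spots.

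Many spots entered on very few molecules. In the micropillar library 38 of 100 spots held a single UMI of the 7 genes and 31 held at least 3, while in the flat library 14 held a single UMI and 49 held at least 3. At least 2 different markers were seen in 32 micropillar and 53 flat spots. Ptgds and Igfbp2 together made up 78.6% of the marker UMIs in micropillar spots and 82.5% in flat spots, and 59 micropillar and 63 flat spots held no other marker. The ranking by share also favoured shallow spots, with a median of 377.5 UMIs and 327 genes in micropillar 7-gene spots against 912 UMIs in micropillar other spots, and 368 UMIs and 319 genes in flat 7-gene spots against 798 UMIs in flat other spots.

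Of the single markers, Ptgds, the prostaglandin D synthase, had 94 UMIs in 54 micropillar 7-gene spots and 162 UMIs in 71 flat 7-gene spots. Igfbp2, which binds insulin-like growth factors, had 90 UMIs in 43 micropillar spots and 93 in 49 flat spots. Foxc1 had 24 UMIs in each library, in 20 micropillar and 17 flat spots. These 3 genes therefore supplied most of the marker UMIs in both libraries. Slc22a6, an organic anion transporter, had 13 UMIs in each library, Aldh1a2, the retinoic acid synthesis enzyme, had 9 in each, and Slc6a13, a GABA transporter, had 4 in micropillar and 8 in flat spots. The solute exporter gene Slc47a1 had no UMI in either set of 7-gene spots, which allows up to 0.00641% of UMIs in micropillar and 0.00725% in flat spots, and it had 3 and 2 UMIs in the other spots of the micropillar and flat libraries. Thinned to 200 UMIs per spot, Ptgds was seen in 32% of micropillar 7-gene spots and 1.49% of micropillar other spots, and in 53% of flat 7-gene spots and 1.85% of flat other spots, a contrast that the rule itself creates. In the mm10 build Ptgds lies on chromosome 2 from 25466709 to 25470046 and Igfbp2 on chromosome 1 from 72824503 to 72852474, and the counts are per whole gene.

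Whether the markers mark the same spots was examined by choosing 100 spots per library with 6 of the genes and reading the one left out. The ratio of chosen spots over the rest was above 0 for every marker with a UMI in the chosen spots, on the log2 scale of CPM (a gene's share of UMIs on the scale of 1000000). Ptgds was higher by 2.31 in the micropillar library (1.74 to 2.83, 32 UMIs in 17 of the 100 spots) and by 3.60 in the flat library (3.19 to 4.0, 65 UMIs in 33 spots). Igfbp2 was higher by 2.24 in the micropillar library (1.47 to 2.93, 18 UMIs) and 3.16 in the flat library (2.57 to 3.70, 32 UMIs). Slc22a6 was higher by 3.80 and Slc6a13 by 4.79 in the micropillar library, and by 3.70 and 4.24 in the flat library, on 3 to 8 UMIs each.

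Foxc1 was the exception of the micropillar library. Chosen without it, micropillar spots held 3 Foxc1 UMIs and a log2 ratio of 0.66 whose interval ran from -1.64 to 2.24, while flat spots held 9 and a ratio of 2.77 (1.59 to 3.78). Aldh1a2 rested on 3 UMIs in either library, with ratios of 2.91 in the micropillar library (0.54 to 4.61) and 3.04 in the flat library (0.64 to 4.80). Without spots that held at least 2 Ttr UMIs, the Ptgds ratio was 2.67 in the micropillar library and 3.91 in the flat library, and without those spots the intervals of Foxc1 (-2.45 to 2.5) and Aldh1a2 (-0.19 to 4.95) crossed 0 in the micropillar library.

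**Figure D2:**
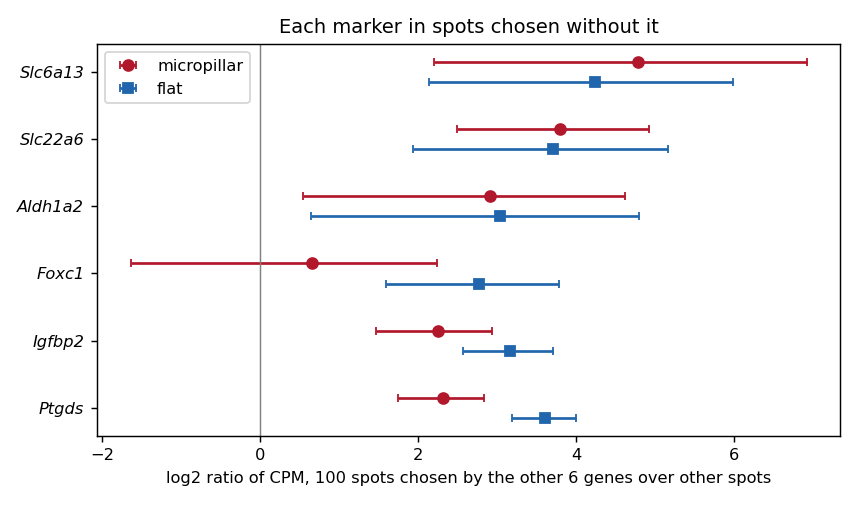
Log2 ratio of CPM of each marker between the 100 spots chosen by the other 6 genes and the other spots, with the micropillar library above the flat library for each gene and bars as 95% counting intervals. Intervals lie above 0 for 5 markers in the micropillar library, where that of Foxc1 crosses 0, and for 6 markers in the flat library, while Slc47a1 is not drawn because no chosen spot held it.

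The 7-gene spots fell into classes with different content, under a division made after the values had been seen. Spots with at least 2 Ttr UMIs but fewer than 5 collagen UMIs numbered 15 in the micropillar library and 14 in the flat library. Spots with at least 5 UMIs of 15 collagen genes but fewer than 2 of Ttr numbered 28 in the micropillar and 14 in the flat library, and 2 micropillar spots and no flat spot met both. The remaining spots numbered 55 in the micropillar library and 72 in the flat library.

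Ttr spots also held other choroid plexus RNA. The 14 choroid plexus genes other than Ttr and Enpp2 took 1.22% of their UMIs in the micropillar library and 0.897% in the flat library, against 0.0229% and 0.0216% in the remaining spots of the same libraries. Ttr, which defines the class, took 3.06% in the micropillar and 3.27% in the flat library, and the oligodendrocyte list, which includes the choroid-expressed gene Enpp2, took 2.76% and 2.97%. Igfbp2 was the marker that admitted them, at 0.458% of UMIs in micropillar and 0.443% in flat Ttr spots, against 0.110% in micropillar and 0.158% in flat remaining spots. Their Ptgds share was 0.0528% in the micropillar library and 0.144% in the flat library. Of all eligible spots with at least 2 Ttr UMIs, 17 of 121 in the micropillar library and 14 of 68 in the flat library were 7-gene spots, and these held 34.2% of the micropillar and 36.9% of the flat Ttr UMIs.

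Collagen spots carried bone RNA. The 15 collagen genes took 5.27% of their UMIs in the micropillar library and 4.41% in the flat library. Osteoblast and osteocyte genes, chiefly Bglap, which encodes the bone matrix protein osteocalcin, took 0.696% in the micropillar and 0.907% in the flat library, against 0.0138% and 0.0144% in the remaining spots of the same libraries. Collagen spots were shallow, with a median of 323.5 UMIs in the micropillar and 239 in the flat library. Of spots that held Foxc1, 13 of 20 in the micropillar library and 3 of 17 in the flat library held at least 5 collagen UMIs. Osteoblast and osteocyte genes had 74 UMIs, or 0.780%, in the micropillar spots with Foxc1. In the flat spots with Foxc1 they had 10 UMIs, or 0.134%. Collagen spots were not particular to the rule, since 30% of micropillar 7-gene spots (21.2 to 40.0) and 28.6% of micropillar other spots held at least 5 collagen UMIs, as did 14% of flat 7-gene spots (7.87 to 22.4) and 21.2% of flat other spots.

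The remaining spots had the highest Ptgds share, at 0.330% of UMIs in the micropillar library and 0.478% in the flat library. Neuron markers took 0.775% in the micropillar and 0.823% in the flat library, against 0.229% and 0.227% in Ttr spots. Meningeal genes other than collagens took 0.459% in micropillar and 0.669% in flat remaining spots, close to the 0.449% and 0.577% of Ttr spots.

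**Figure D3:**
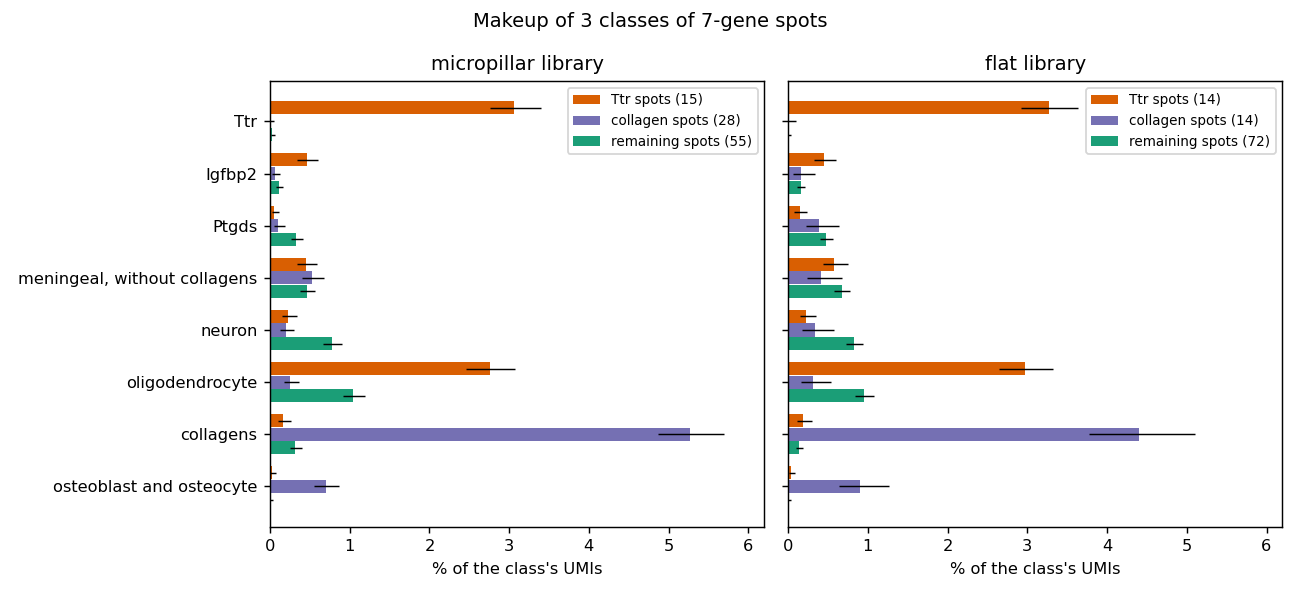
Share of each class's summed UMIs taken by single genes and gene lists, in the micropillar library (left) and the flat library (right), with bars as shares and lines as 95% counting intervals. Ttr and oligodendrocyte-list RNA stand out in Ttr spots, collagen and osteoblast RNA in collagen spots, and Ptgds and neuron-list RNA are highest in the remaining spots.

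The 7-gene spots were compared with all other eligible spots of the same library, gene by gene. Of 1939 genes with at least 5 expected UMIs in both sets of 7-gene spots, 46 (2.37%) were at least 2-fold higher in both libraries and 115 (5.93%) at least 2-fold lower in both, with median log2 ratios over all tested genes of -0.31 in the micropillar and -0.28 in the flat library. Choroid plexus genes were first among them. Ttr had 8999 CPM in micropillar 7-gene spots and 262 CPM in micropillar other spots, a log2 ratio of 5.10 (4.93 to 5.27), and 7759 CPM in flat 7-gene spots against 255 CPM in flat other spots, a ratio of 4.93 (4.73 to 5.13). The 421 micropillar Ttr UMIs lay in 24 of the 100 spots, with 75 in the highest, and the 321 flat Ttr UMIs in 18, with 69 in the highest. Without the Ttr spots, 21 genes were 2-fold higher and 60 lower in both libraries. Fewer genes reach 5 expected UMIs when spots are left out, so these counts are not shares of the 1939. Without both the Ttr and the collagen spots 890 genes were tested, of which 17 were higher and 36 lower.

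Next in order came Enpp2, the lysophospholipase that makes lysophosphatidic acid, with log2 ratios of 4.65 in the micropillar and 4.17 in the flat library. The ion channel gene Trpm3, expressed in choroid plexus, followed with 4.30 in the micropillar and 3.89 in the flat library, and Fxyd1, a regulator of the sodium pump, with 3.35 and 2.93. Each of these genes is known from choroid plexus as well as from other cells. Apoe and Clu, secreted lipid-binding proteins of astrocytes and choroid plexus, were higher by 2.04 and 2.02 in the micropillar and 1.93 and 2.21 in the flat library. Further down, Dbi, Pltp, Igfbp7, Lgals1, Cldn11, Mt2, Cd74, Sparc and the globin gene Hba-a2, which has a near-identical copy, had log2 ratios of 1.60 to 2.02 in the micropillar library.

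Among 16 choroid plexus genes, 11 had intervals above 0 in both libraries, against 1.37% of the 14952 genes with a UMI in both. They include Clic6, a chloride channel protein of that epithelium, with log2 ratios of 4.96 in the micropillar and 4.27 in the flat library, and Folr1, the folate receptor that carries folate into cerebrospinal fluid, with 5.14 and 4.84. Without Ttr and Enpp2 the rest of the list was higher by 4.72 in the micropillar (4.45 to 4.97) and 3.86 in the flat library (3.52 to 4.20). Markers of ependyma, the ciliated lining of the ventricles, were higher by 3.05 (2.56 to 3.5) in the micropillar library and 2.54 (1.90 to 3.13) in the flat library, including Foxj1, the regulator of motile cilia, on 10 and 6 UMIs. With spots ranked without Ptgds and Igfbp2, the choroid plexus list had ratios of 0.41 in the micropillar and 1.45 in the flat library.

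The 8 lowest genes by the naming rule had 1 to 8 UMIs in each set of 7-gene spots, so their ratios are imprecise. Sst, which encodes the neuropeptide somatostatin, had 8 UMIs in micropillar and 6 in flat 7-gene spots, with log2 ratios of -1.78 (-3.00 to -0.80) and -2.14 (-3.58 to -1.01). The phosphodiesterase gene Pde10a of striatal neurons had 1 and 2 UMIs, with ratios of -3.63 and -3.32. Penk, which encodes the enkephalin precursor, and the neuronal tubulin gene Tubb3 were among the others, with Syt2, Grid1, Dagla and Arhgef4, and the flat intervals of Syt2, Grid1 and Dagla cross 0. Of 11 neuron markers tested, none was 2-fold lower in both libraries, too few genes to tell apart from the 5.93% of all tested genes. At any size 9 of the 11 were lower in both libraries and 1 was higher in both. The median of all tested genes was also below 0, at -0.31 in the micropillar and -0.28 in the flat library. Over all spots, 106 genes (0.709%) had intervals below 0 in both libraries.

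The leptomeningeal genes that the rule did not use were examined as a list of 31 genes without collagens. As a group they were higher in 7-gene spots, by 1.65 on the log2 scale in the micropillar library (1.45 to 1.84, 219 UMIs) and by 2.55 in the flat library (2.36 to 2.74, 258 UMIs). Of the 31, 2 passed the minimum of expected UMIs, namely Nnat and Bgn, and neither was 2-fold higher in both libraries. Intervals lay above 0 in both libraries for 9 of the 31, a larger share than the 1.37% of all genes with a UMI in both. That background was not matched to any list for UMI counts.

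Those 9 genes were the following. Igf2, a growth factor of pial and choroid stroma, had 23 UMIs in micropillar and 38 in flat 7-gene spots, with log2 ratios of 3.37 (2.67 to 4.01) and 4.39 (3.81 to 4.95). Slc6a20a, the proline and betaine transporter gene, had 20 and 23 UMIs, with ratios of 2.99 (2.24 to 3.66) in the micropillar and 3.82 (3.08 to 4.49) in the flat library. Apod, a lipid carrier, had 18 and 33 UMIs, with ratios of 2.32 (1.54 to 3.01) and 3.58 (2.98 to 4.13). These 3 genes were the clearest of the set, with more UMIs in flat than in micropillar spots for each.

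Islr, a membrane protein of stromal cells, had 17 UMIs in micropillar and 14 in flat 7-gene spots, with ratios of 2.90 and 2.87. Mgp, an inhibitor of calcification, had 11 and 9 UMIs with ratios of 2.75 and 2.46. Ranbp3l, a gene of meningeal fibroblasts in the mouse, had 3 and 6 UMIs against 3 and 2 in the other spots of the micropillar and flat libraries, and ratios of 6.05 (3.15 to 8.95) and 7.29 (4.80 to 10.6). Slc13a4, a sulfate transporter, had 2 and 5 UMIs, Slc22a8, an organic anion transporter, had 2 in each library, and Itih5 had 6 and 2. The single-digit counts leave these ratios loosely set.

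General fibroblast genes had few UMIs apart from collagens. Dcn, which encodes the small proteoglycan decorin, had 9 UMIs in micropillar and 4 in flat 7-gene spots, with ratios of 1.82 (0.66 to 2.78) and 1.16 (-0.74 to 2.57). Lum, another small proteoglycan, had 3 and 0 UMIs. The fibroblast receptor gene Pdgfra had 1 UMI in micropillar spots and none in flat spots. Col1a2, which encodes a chain of type I collagen, had 365 UMIs in 49 micropillar spots and 120 UMIs in 34 flat spots, with ratios of 1.69 (1.54 to 1.84) and 0.73 (0.45 to 0.99). Of 11 arachnoid barrier genes, Cldn11, a tight junction gene also of oligodendrocytes, was 2-fold higher in both libraries, and of 10 pial and perivascular genes the interval of 1, Col18a1, lay above 0 in both.

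The pathways of the markers were read against the 1.37% of all genes with intervals above 0 in both libraries. Of 23 solute transporters beside the markers, 3 had intervals above 0 in both libraries, the Slc6a20a, Slc13a4 and Slc22a8 named above, and the list was higher by 1.07 in the micropillar (0.71 to 1.40, 75 UMIs) and 1.39 in the flat library (1.07 to 1.70, 88 UMIs). Slc7a11, the cystine and glutamate exchanger of meningeal cells, had 2 UMIs in micropillar and 9 in flat 7-gene spots, with ratios of 0.49 (-2.57 to 2.39) and 3.55 (2.32 to 4.62). Of 16 genes of prostaglandin synthesis, breakdown and reception beside Ptgds, 1 had intervals above 0 in both, the prostacyclin synthase gene Ptgis, with 5 UMIs in each library and ratios of 2.82 (1.13 to 4.14) in micropillar and 3.70 (1.93 to 5.16) in flat spots. The receptor genes for prostaglandin D2, Ptgdr and Ptgdr2, had no UMI in 7-gene spots of either library.

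Of 18 retinoid genes beside Aldh1a2, Ttr alone had intervals above 0 in both libraries. In the insulin-like growth factor axis 3 of 10 genes beside Igfbp2 lay above 0 in both, Igf2 and the binding protein genes Igfbp5 and Igfbp7. Among spots under 500 UMIs, Igf2 alone of the axis lay above 0 in both libraries, and Igfbp7 lay below 0 in both. Igfbp5 had 34 UMIs in micropillar and 14 in flat 7-gene spots, with ratios of 2.09 (1.55 to 2.59) and 1.02 (0.14 to 1.79). Of 20 transcription factors of meningeal cells beside Foxc1, none had intervals above 0 or below 0 in both libraries, and Zic1, with 11 and 12 UMIs, had ratios of 0.60 (-0.41 to 1.45) in the micropillar and 2.22 (1.23 to 3.07) in the flat library.

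Because the 7-gene spots are shallow, both sets were also compared within 2 ranges of depth, chosen after the values had been seen. Under 500 UMIs there were 61 micropillar 7-gene spots of 304 median UMIs against 590 other spots of 355.5, and 76 flat 7-gene spots of 337.5 against 640 other spots of 318. Within this range 34 genes (0.286% of 11902) had intervals above 0 in both libraries and 23 (0.193%) below 0. Leptomeningeal genes held 5 of the 34, namely Igf2, Slc6a20a, Apod, Nnat and Slc13a4, of 30 listed genes with a UMI in both libraries. Slc13a4 had 2 UMIs in 7-gene spots and none in other spots of this depth in each library. It thus entered the count only through the 7-gene spots and lends no weight to it. Choroid plexus genes held 1, Ttr, of 10 listed genes with a UMI in both libraries.

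At this depth Igf2 had 7 UMIs in micropillar and 23 in flat 7-gene spots, with log2 ratios of 3.11 (1.45 to 4.71) and 2.70 (1.85 to 3.53). Slc6a20a had 9 and 18 UMIs, with ratios of 2.06 (0.77 to 3.22) and 3.25 (2.19 to 4.32). Gfap, the intermediate filament gene of astrocytes, had 24 and 18 UMIs, with 1.89 (1.16 to 2.57) in the micropillar and 1.89 (1.00 to 2.72) in the flat library. The list of 31 leptomeningeal genes was higher by 0.77 in the micropillar (0.48 to 1.05) and 1.08 in the flat library (0.84 to 1.31), both lower than over all depths. Ttr was higher by 1.40 in the micropillar and 1.11 in the flat library. The choroid plexus list was higher by 1.55 in the micropillar (1.07 to 2.00) and 0.88 in the flat library (0.41 to 1.32).

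The collagens differed between libraries and depths. Among spots under 500 UMIs the collagen list was higher by 0.22 in micropillar 7-gene spots (0.09 to 0.34) and had a log2 ratio of -1.97 in flat 7-gene spots (-2.19 to -1.76), against 1.44 and 0.38 over all depths. At 500 or more UMIs it was 0.16 in the micropillar (-0.11 to 0.41) and 0.71 in the flat library (0.22 to 1.16). In spots under 500 UMIs the basement membrane list gave -0.11 in the micropillar and -0.85 in the flat library. Its ratios were 1.42 and 1.72 at 500 or more UMIs, and 1.32 and 1.19 over all depths. Igfbp7 was lower in 7-gene spots under 500 UMIs in both libraries. Its ratios were -1.19 in the micropillar (-2.42 to -0.19) and -0.81 in the flat library (-1.70 to -0.03). Cd74 had a ratio of -0.94 in flat 7-gene spots under 500 UMIs. Bglap alone of the osteoblast genes had intervals above 0 in both libraries under 500 UMIs. Its ratios there were 2.68 (2.24 to 3.12) in the micropillar and 1.48 (0.79 to 2.12) in the flat library.

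Of the 23 genes below 0 in spots under 500 UMIs, 3 belong to the list of keratinocyte and hair genes (Krt10, Krt14 and Krt27). Another 1, Atp2a1, belongs to that of skeletal muscle. Others were chosen here after their values were seen. The keratin gene Krt14 of basal keratinocytes had ratios of -1.81 and -1.67 in the micropillar and flat libraries, the skin barrier gene Flg had -2.25 and -2.29, and the fast muscle troponin gene Tnnc2 had -1.25 and -1.93. Col3a1, which encodes type III collagen, had -0.45 and -2.57. Of 7-gene spots under 500 UMIs, 20 of 61 in the micropillar and 13 of 76 in the flat library held at least 5 collagen UMIs, against 273 of 590 and 319 of 640 other spots.

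In deeper spots choroid plexus genes led. At 500 or more UMIs there were 39 micropillar 7-gene spots of 616 median UMIs against 2159 other spots of 1107, and 24 flat 7-gene spots of 666 against 1469 other spots of 1038, so depth still differed. At least 2 Ttr UMIs were held by 14 of the micropillar and 10 of the flat 7-gene spots. The choroid plexus list was higher there by 5.57 in the micropillar (5.45 to 5.70) and 5.78 in the flat library (5.63 to 5.93). Intervals lay above 0 in both libraries for 145 genes (0.992% of 14620) and below 0 for 65 (0.445%). The leptomeningeal list was higher by 1.43 and 2.47, with Igf2, Slc6a20a and Apod again above 0 in both libraries.

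**Figure D4:**
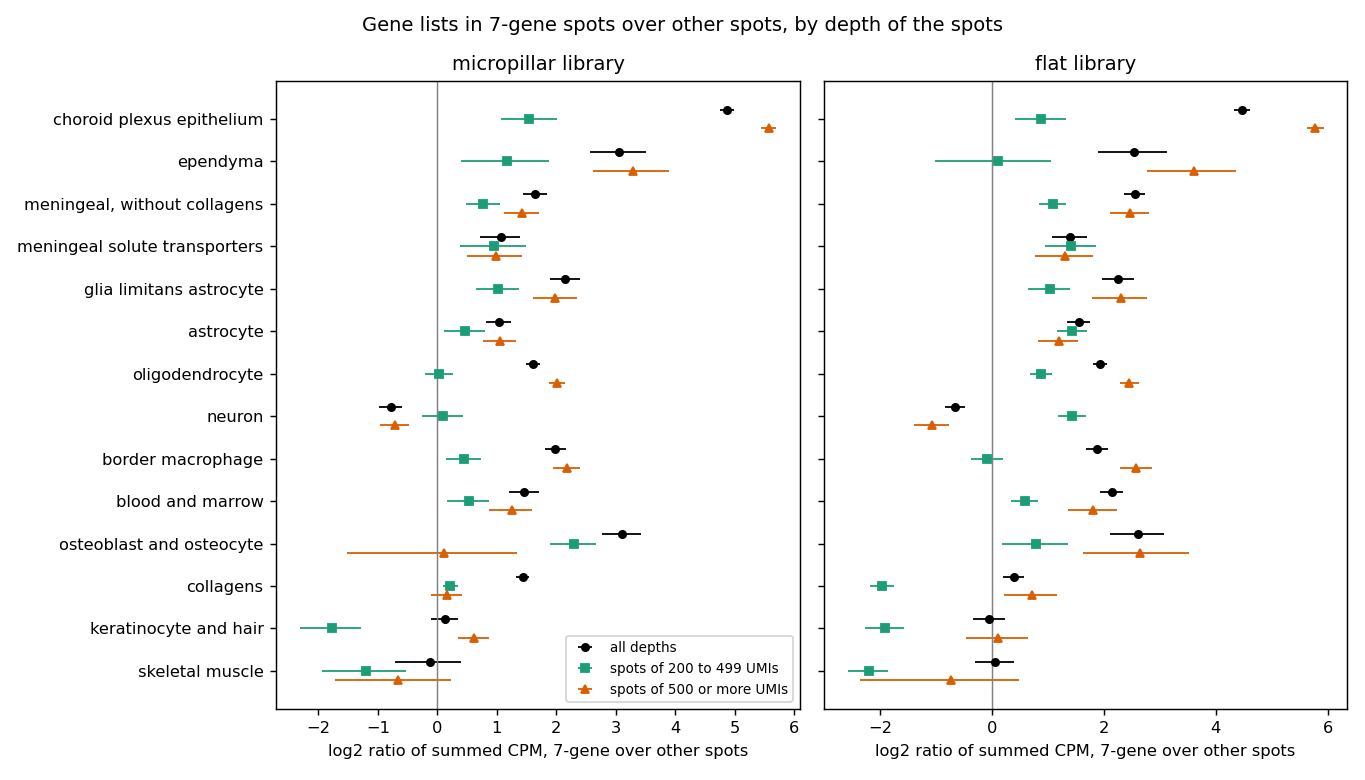
Log2 ratio of the summed CPM of gene lists between 7-gene and other spots, in the micropillar library (left) and the flat library (right), over all spots and within 2 ranges of depth, with lines as 95% counting intervals. Intervals of the choroid plexus, leptomeningeal, solute transporter, glia limitans, astrocyte, and blood and marrow lists lie above 0 in each panel and range. The ependyma, oligodendrocyte and osteoblast lists also lie above 0, with some intervals that cover 0. Neurons and skin differ in sign between the 2 ranges in both libraries, collagens do so in the flat library only, and muscle lies below 0 in both ranges. The lower range, under 500 UMIs, starts at the minimum of 200.

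Glial genes accompanied the 7-gene spots. The list of glia limitans genes was higher by 2.15 in the micropillar (1.90 to 2.40) and 2.25 in the flat library (1.96 to 2.53), and still by 1.02 and 1.03 in spots under 500 UMIs. Gfap had 44 UMIs in micropillar and 36 in flat 7-gene spots, with ratios of 3.25 (2.76 to 3.71) and 3.36 (2.80 to 3.88). Aqp4, the water channel of astrocyte endfeet, had 16 and 23 UMIs, with ratios of 2.38 and 3.37. Of 12 astrocyte genes, 4 had intervals above 0 in both libraries, against 1.37% of all genes, and of 14 oligodendrocyte genes 8, including the myelin gene Mbp and the choroid-expressed Enpp2. In spots under 500 UMIs these counts were 1 of 12 and 0 of 12, against 0.286% of all genes.

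The ratio of neuron markers differed between the ranges of depth. Over all depths the list had log2 ratios of -0.79 in the micropillar (-0.98 to -0.60) and -0.67 in the flat library (-0.85 to -0.49), with 2 of 12 genes, Snap25 and Stmn2, below 0 in both libraries. In spots under 500 UMIs the ratio was 0.10 in micropillar spots (-0.25 to 0.44) and 1.43 in flat spots (1.18 to 1.68). At 500 or more UMIs it was -0.72 in the micropillar (-0.96 to -0.48) and -1.07 in the flat library (-1.40 to -0.77).

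Of 9 border macrophage genes with a UMI in both libraries, 2 had intervals above 0 in both, Apoe and Stab1, as did 2 of 11 blood and marrow genes, the globin genes Hba-a2 and Hbb-bs, against 1.37% of all genes. Apoe made up 256 of 278 UMIs of the border macrophage list in micropillar and 204 of 218 in flat 7-gene spots, so this list is close to a measure of 1 gene that astrocytes and choroid plexus also express. In spots under 500 UMIs the macrophage list had ratios of 0.44 in the micropillar (0.15 to 0.73) and -0.091 in the flat library (-0.39 to 0.19), with no gene above 0 in both. The blood and marrow list was higher by 1.46 in the micropillar and 2.14 in the flat library, and by 0.53 and 0.58 in spots under 500 UMIs.

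The study set the 2 implant surfaces side by side, so micropillar and flat 7-gene spots were compared with each other, at similar median depth. Of 864 genes with at least 20 summed UMIs, 45 (5.21%) were at least 2-fold higher in micropillar spots and 57 (6.6%) at least 2-fold lower, with a median log2 ratio of -0.06. For the same genes in the other spots, which hold far more UMIs, 4 (0.463%) were higher and 3 (0.347%) lower, with a median of -0.01. With the 50 highest spots per library the counts in 7-gene spots were 19 higher and 20 lower, among the fewer genes that reach 20 summed UMIs there. Small counts widen the ratios in the 7-gene spots, so these shares of called genes are not comparable as effects.

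Collagens were higher in the micropillar 7-gene spots. The list had 706 UMIs, or 1.51% (1.40 to 1.62), in micropillar 7-gene spots and 225 UMIs, or 0.544% (0.475 to 0.620), in flat ones, a log2 ratio of 1.47 (1.25 to 1.70), against 0.41 in the other spots. Of 5 collagen genes tested, 5 were 2-fold higher, against 5.21% of all tested genes. Col1a2 had 7802 CPM in micropillar and 2901 CPM in flat 7-gene spots, a ratio of 1.43 (1.13 to 1.74), and Col3a1 had 2843 and 967 CPM, a ratio of 1.56 (1.04 to 2.10). At least 5 collagen UMIs were held by 30 micropillar and 14 flat spots, a count that uses the same UMIs as the ratio. Within the classes the shares were 5.27% in micropillar and 4.41% in flat collagen spots. In the remaining spots, without the Ttr and collagen spots, the list ratio was 1.25 (0.65 to 1.87). With spots of at least 500 UMIs ranked anew the list ratio was 0.33, with 200 spots per library 0.46 and without Ptgds in the rule 0.58.

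For the leptomeningeal list as a whole the ratio had the opposite sign. The list without collagens took 0.468% of UMIs in micropillar 7-gene spots (0.408 to 0.534) and 0.624% in flat ones (0.550 to 0.704), a log2 ratio of -0.41 (-0.68 to -0.15), against 0.49 (0.42 to 0.56) in the other spots. Nnat, which encodes the membrane proteolipid neuronatin, had 32 UMIs in micropillar and 72 in flat 7-gene spots, a ratio of -1.35 (-2.0 to -0.73), and Apod had a ratio of -1.05 (-1.97 to -0.18). Of 8 listed genes tested these 2 were 2-fold lower, against 6.6% of all tested genes, and none was higher, against 5.21%. With spots of at least 500 UMIs ranked anew the list ratio was 0.03. In 7-gene spots under 500 UMIs, Nnat made up 18 of the list's 118 UMIs in the micropillar library and 57 of 185 in the flat library. The list ratios between the libraries therefore rest in part on 1 gene, and the list was not measured without Nnat.

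Other named genes rested on few spots or on other tissues. Avp, the vasopressin gene of hypothalamic neurons, had 11 UMIs in micropillar and 81 in flat 7-gene spots, but 43 of the 81 lay in 1 flat spot, and its ratio in the other spots was 0.68. Mucl2, a mucin-like gland gene, had 39 UMIs in micropillar 7-gene spots and none in flat ones, a log2 ratio of 3.52 with the flat set put at a floor of 3 UMIs and an exact lower limit of 3.16, and the other spots of the flat library held none either. Tnnc2 had 12 UMIs in micropillar and 35 in flat spots, 13 of them in 1 flat spot. Lgals3, a galectin of macrophages and epithelia, was higher in micropillar spots by 1.92 (0.71 to 3.35) and the astrocyte gene S100b had a ratio of -1.48 (-2.39 to -0.64). The hair follicle gene Tchh, the growth-factor binding protein gene Igfbp5, the lysosomal protease gene Ctsd, the fatty acid carrier gene Fabp5 and the myosin light chain gene Myl12a were higher by 0.95 to 1.21, and Ccdc85b, the synaptic genes Snap25 and Rph3a, and Hba-a2 had ratios of -1.22 to -1.0. Mucl2, Lgals3, Tchh, Igfbp5, Ctsd, Fabp5 and Myl12a reached the naming minimum of 30 UMIs only in micropillar 7-gene spots. Avp, Tnnc2, S100b, Ccdc85b and Rph3a reached it only in flat ones. All were then picked by their ratio, so direction and size follow in part from the choice and are given as description only. With spots of at least 500 UMIs ranked anew, Lgals3, Tchh, Igfbp5, Ctsd, Fabp5, Avp, Tnnc2, Nnat, Ccdc85b and Rph3a each had the opposite direction.

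**Figure D5:**
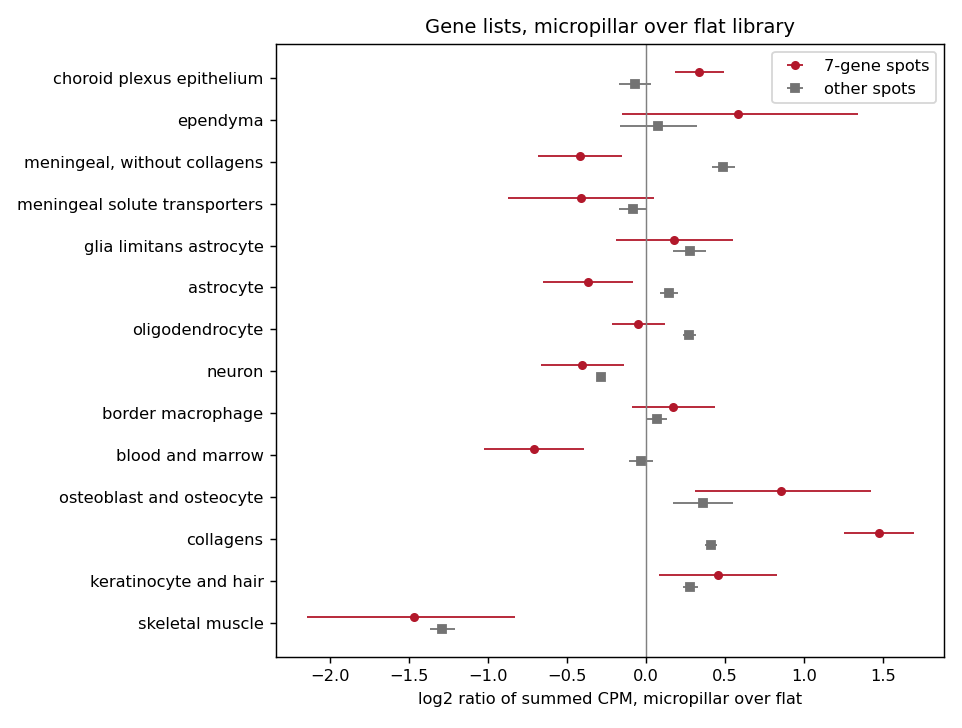
Log2 ratio of the summed CPM of gene lists between the micropillar and the flat library, in 7-gene spots and in other spots, with lines as 95% counting intervals. Over all depths, collagens reach 1.47 in 7-gene spots against 0.41 in other spots, and the leptomeningeal list lies at -0.41 against 0.49.

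In spots under 500 UMIs the collagen ratio of micropillar over flat 7-gene spots was 2.06 (1.82 to 2.30) and that of the neuron list -0.78 (-1.18 to -0.39), against -0.13 and 0.55 in other spots of that depth. At 500 or more UMIs the order of the collagen ratios was reversed, at 0.90 (0.38 to 1.45) in 7-gene spots against 1.45 (1.39 to 1.51) in other spots. The neuron list had 0.02 (-0.37 to 0.42) in 7-gene spots of that depth and -0.34 in other spots. Osteoblast and osteocyte genes had a ratio of 1.80 (1.18 to 2.44) under 500 UMIs and -1.90 (-3.78 to -0.26) at 500 or more UMIs, where they had 5 micropillar and 11 flat UMIs. The leptomeningeal list gave -0.24 (-0.58 to 0.10) in the lower range and -0.30 (-0.74 to 0.16) in the upper, with intervals that cover 0.

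Along the ranking, flat spots of ranks 1 to 25 had 1.11% of UMIs from Ptgds and 1.08% from the leptomeningeal list, with 0.264% from choroid plexus genes. The leptomeningeal share was 0.613% at ranks 26 to 50, 0.556% at 51 to 75 and 0.327% at 76 to 100. Micropillar spots of ranks 1 to 25 had 0.312% from Ptgds, 0.602% from the leptomeningeal list and 3.35% from choroid plexus genes, and their leptomeningeal share at ranks 76 to 100 was 0.415%. Choroid plexus genes took 1.64% at ranks 26 to 50 in the micropillar library and 3.81% in the flat library, the other way round from ranks 1 to 25. Ptgds shares by rank follow from the rule.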

How the data were processed

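Counts of UMIs per gene and spot were used as deposited by the authors, whole numbers with no normalisation. The matrices carry a Space Ranger 2.0.1 header, per the file headers, and the submitters' processing notes list Cell Ranger 7.2.0 and mm10. No source read for this text states the probe set, the alignment settings or the spot filter. Of 19465 gene rows, 11 symbols stand on 2, of which that with more UMIs was kept. GENCODE M21 held 19440 of the 19454 identifiers and gave the coordinates.

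The members, gene lists and alternatives were chosen with earlier results of these data known. Spots with at least 200 UMIs were ranked by the share of the 7 genes, and 100 per library taken. UMIs were summed over spots and divided by the summed total. The log2 ratio of these shares has an exact conditional Clopper-Pearson 95% interval and no pseudocount, and a set with no UMI was set to 3 UMIs. With 1 library per group no test was made. Genes needed 5 expected UMIs in both sets of 7-gene spots, or 20 summed UMIs between libraries.

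Named genes were the 15 highest and 8 lowest by the smaller log2 ratio of like direction in both libraries, the 10 highest and 10 lowest between libraries with at least 30 UMIs in 1 of them and like direction by the mean of per-spot CPM, the markers, and each list's most abundant and extreme members. Genes named for intervals beyond 0, the classes of spots and the ranges of depth were chosen after the values were seen. Some genes are not reported here. The alternatives changed the UMI minimum, the number of spots, the markers, the summing, the gene filter and the scaling (TMM from edgeR 4.0.16, size factors from DESeq2 1.42.0). Intervals were tested on simulated counts. Python 3.11.15 and scipy 1.17.1 were used.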

Additional observations from a re-analysis of the deposited data

Results flagged for a closer look

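Spots under 200 UMIs entered no comparison, and they held RNA of the 7 genes above the limit that a count of 0 allows. In the micropillar library 454 such spots had 26 marker UMIs, or 0.0557% of their UMIs (95% interval 0.0364 to 0.0815), above the 0.00642% that a count of 0 allows. In the flat library 952 such spots had 48 marker UMIs, or 0.0522% (0.0385 to 0.0692), above 0.00326%. Over all eligible spots, 7-gene spots included, the share was 0.0286% in the micropillar and 0.0318% in the flat library. The source of these UMIs was not tested.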

How the results depend on the processing

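No paired analysis was possible because each group is 1 library and the labels give no replicate numbers. Of 2971 values under 18 alternatives, 6 of them chosen after seeing the data, 2127 stayed within the counting interval of the main value and 794 moved further. Counts of genes have no such interval and were held to a fold limit instead. The other 50 were main ratios of at least 2-fold that reversed direction. Sign changes of smaller ratios are not among the 50, such as that of collagens in the flat library from 0.38 to -1.97 under 500 UMIs. The cause of these changes was not tested. Depth is 1 limit, with 46781 micropillar and 41369 flat UMIs over the 7-gene spots.

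Genes 2-fold higher than other spots in both libraries (46) numbered 71 with a minimum of 500 UMIs, 13 with 50 spots, 119 with 200 spots, 28 with the top 3.5% of spots, 71 without Ptgds in the rule, 91 without Ptgds and Igfbp2, 25 by per-spot means, 9 and 274 with the gene minimum tripled or set to 1, 21 without Ttr spots, 28 without collagen spots, 17 without both, 14 in spots under 500 UMIs and 11 above. Genes lower in both (115) numbered 70 with 50 spots, 277 without Ptgds, 276 without Ptgds and Igfbp2, 25 and 255 under the gene minimums, 60 without Ttr spots, 36 without both classes, 33 in spots under 500 UMIs and 74 above. Genes higher in micropillar than flat 7-gene spots (45) numbered 126 with a minimum of 500 UMIs, 19 with 50 spots, 151 with 200, 74 without Ptgds and Igfbp2, 4 and 703 under the gene minimums, 74 under DESeq2 size factors, 18 without collagen spots, 19 without both classes, 26 in spots under 500 UMIs and 24 above. Genes lower (57) numbered 106, 20 and 121 under the first 3 of these, 4 and 654 under the gene minimums, 23 without both classes and 14 in spots of 500 or more UMIs. The number of genes tested changes with the spots used and with the gene minimum, so these counts are not shares of 1 fixed set. Without both classes 890 genes were tested against other spots, in place of 1939. DESeq2 gave a size factor of 1 for each library, so its count of 74 compares UMIs that are not scaled to the library totals.

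The collagen ratio of micropillar over flat (1.47) was 0.33 and 1.22 with minimums of 500 and 100 UMIs, 1.73 and 0.46 with 50 and 200 spots, 2.03 with the top 3.5%, 0.58 without Ptgds, 1.21 without Ptgds and Igfbp2, 0.86 without collagen spots, 1.25 without both classes, 2.06 in spots under 500 UMIs and 0.90 above. The leptomeningeal ratio of micropillar over flat (-0.41) was 0.027 with a minimum of 500 UMIs. The choroid plexus ratio over other spots in the micropillar library (4.87) was 4.75 and 4.50 with minimums of 500 and 100 UMIs, 5.26 and 4.36 with 50 and 200 spots, 5.27 without Ptgds, 0.41 without Ptgds and Igfbp2, 3.60 by per-spot means, 1.33 without Ttr spots, 5.15 without collagen spots, 1.97 without both, 1.55 in spots under 500 UMIs and 5.57 above. In the flat library (4.47) it was 5.01 with a minimum of 500 UMIs, 5.07 and 4.66 with 50 and 200 spots, 4.72 with the top 3.5%, 5.04 without Ptgds, 1.45 without Ptgds and Igfbp2, 2.98 by per-spot means, 1.04 without Ttr spots, 0.95 without both classes, 0.88 in spots under 500 UMIs and 5.78 above. The leptomeningeal ratio in the micropillar library (1.65) was 1.17 with a minimum of 500 UMIs, 1.92 and 1.21 with 50 and 200 spots, 1.02 without Ptgds and Igfbp2, 1.43 by per-spot means and in spots of 500 or more UMIs, 2.00 without collagen spots, 2.07 without both classes and 0.77 in spots under 500 UMIs. In the flat library (2.55) it was 1.94, 2.88 and 2.18 under the first 3, 2.29 without Ptgds, 1.67 without Ptgds and Igfbp2, 1.87 by per-spot means, 3.01 without collagen spots, 3.13 without both classes and 1.08 in spots under 500 UMIs.

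Reversed ratios of micropillar over flat, with a minimum of 500 UMIs, were those of the dura list (-0.14), skeletal muscle (0.51), Lgals3 (-0.27), Tchh (-0.80), Igfbp5 (-0.40), Ctsd (-0.17), Fabp5 (-0.13), Avp (0.42), Tnnc2 (0.40), Nnat (0.33), Ccdc85b (0.22) and Rph3a (0.074). Others were skeletal muscle with a minimum of 100 UMIs (0.31), 50 spots (0.083), the top 3.5% (0.24) and in spots of 500 or more UMIs (0.24), Fabp5 (-0.036) and Tnnc2 (0.12) with 50 spots, Tchh (-0.21), Fabp5 (-0.022) and Avp (1.97) with 200, Tchh (-0.072), Igfbp5 (-0.018) and Fabp5 (-0.068) without Ptgds, Igfbp5 without Ptgds and Igfbp2 (-0.58), Tnnc2 with the top 3.5% (0.25), Avp in spots of 500 or more UMIs (1.04), and the dura list without collagen spots (-0.18) and without both classes (-0.65). Reversed ratios over other spots were those of oligodendrocyte genes in the micropillar library without Ptgds and Igfbp2 (-0.13), the pial list in the flat library by per-spot means (-0.10) and Enpp2 there without both classes (-0.17). In spots under 500 UMIs, in the micropillar library, they were the pial list (-0.044), basement membrane (-0.11), small proteoglycans (-0.13), matrix glycoproteins (-0.19), microglia (-0.063) and Igfbp7 (-1.19). In the flat library they were the leptomeningeal list with collagens (-1.08), the pial list (-1.77), basement membrane (-0.85), matrix glycoproteins (-1.03), complement (-0.78), border macrophages (-0.091), microglia (-0.064), Igfbp7 (-0.81), Lgals1 (-0.41), Cd74 (-0.94), Sparc (-0.84) and Sst (0.59).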
